A study of Mus musculus with 4 samples.

Results

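Scavenger and mannose receptors bind modified lipoproteins, sugars, microbial surfaces and dying cells, and macrophages use them to take up such material. The 7 genes described here are the mannose receptor Mrc1 (CD206), the class A scavenger receptors Msr1 and Marco, the secreted scavenger receptor cysteine-rich protein Cd5l (AIM), the secreted lectin Fcna (ficolin A), the endocytic receptor Lrp1 and the sialic acid-binding lectin Siglec1 (CD169). They were chosen by symbol, 7 of 55418 gene entries of the deposited tables, and were followed through the cell classes of the thymus. Several of them are known in resident macrophages of spleen, liver and lymph node, where Cd5l and Siglec1 mark particular subsets.

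The cells were sorted from C57BL/6 mouse thymus by a fluorescent reporter and profiled by single-cell RNA sequencing. MAFIA mice carry Csf1r-EGFP-NGFR/FKBP1A/TNFRSF6, in which the Csf1r promoter drives EGFP and an inducible death receptor, and were 5 weeks old. Cd11cYFP mice carry Itgax-Venus, in which the CD11c promoter drives a yellow fluorescent protein, and were 9 weeks old. Reporter, age and, by the study's methods, sex (female MAFIA, male Cd11cYFP) therefore cannot be told apart between the strains. MAFIA replicate 2 and Cd11cYFP replicates 1 and 2 are compared, with median depths of 15759 to 17493 unique molecular identifiers (UMIs, single RNA molecules) per barcode. MAFIA replicate 1 stood apart at 3980.5 and was left out. The study's methods describe a single MAFIA mouse and a pair of Cd11cYFP mice, and the labels do not tie libraries to animals. The p-values measure the spread between these libraries.

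Clusters were named from marker genes that included none of the 7, and the 7 were also left out of the clustering. Timd4+ macrophages numbered 386, 263 and 244 cells (here and below in the order MAFIA replicate 2, Cd11cYFP replicate 1, Cd11cYFP replicate 2), Cx3cr1+ macrophages 472, 408 and 562, and monocytes 167, 674 and 185. The markers that name Timd4+ macrophages summed to 7431 to 8936 CPM (UMIs scaled to a fixed total per sum) in the Timd4+ population, against 1722 to 1948 in the Cx3cr1+ one and 554 to 664 for monocytes. The 6 B cell markers were all found in each population, at 154 to 162 CPM for Timd4+ macrophages, 63.1 to 103 for Cx3cr1+ ones and 70.0 to 112 for monocytes. Their part in the results below was not tested. Erythroid markers were near 0 in all 3 populations, at 0.911 CPM or less.

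Mrc1, Cd5l, Fcna, Lrp1 and Siglec1 were higher in Timd4+ than in Cx3cr1+ macrophages, and Msr1 was lower. Marco did not pass the filter on low counts. Of the 6 genes tested, 5 were higher and 1 was lower in edgeR's quasi-likelihood test, where 21.0% of 12678 genes were higher and 20.1% lower (41.1% either way). Against monocytes the Timd4+ macrophages gave 5 higher and 1 lower, with 49.1% of all genes called (24.8% higher, 24.2% lower). Between Cx3cr1+ macrophages and monocytes, 2 were higher (Mrc1 and Cd5l) and 1 lower (Lrp1), with 37.5% called (19.1% higher, 18.4% lower). The median log2 fold change of the 6 was 3.32, 3.53 and 0.63 in these comparisons, against 0.017, 0.012 and 0 over all genes. The genes were chosen with earlier results of these data known. The counts and medians therefore describe these genes and do not test the family. The comparisons share their populations and are not independent of each other. None of the 6 genes passed a test of whether a difference depended on the reporter (edgeR interaction, 2 residual degrees of freedom), where 0.00789%, 0.0947% and 0.00789% of genes passed. Of the 18 values, 5 had an unadjusted p under 0.05, and the lowest adjusted p was 0.325, for Cd5l in Timd4+ macrophages against monocytes.

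**Figure D1:**
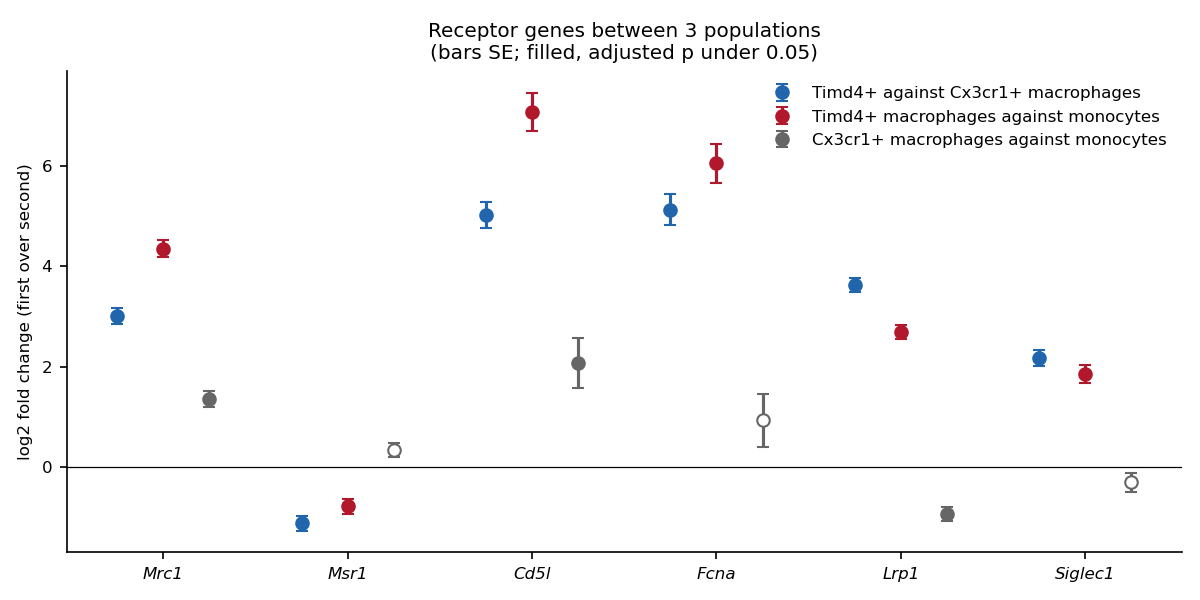
Log2 fold change (vertical axis) of the 6 tested genes in 3 comparisons of populations, with bars for the standard error and filled points for an adjusted p under 0.05. Msr1 lies below 0 in both comparisons of Timd4+ macrophages, at -1.14 and -0.80, and the other 5 genes lie above 0 there.

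The genes lie on GRCm39 (GENCODE) at chr2:14234151-14336926 (Mrc1, + strand), chr8:40034726-40095714 (Msr1, -), chr1:120402267-120432753 (Marco, -), chr3:87265182-87278380 (Cd5l, +), chr2:25514671-25519013 (Fcna, -), chr10:127374012-127457017 (Lrp1, -) and chr2:130911140-130928685 (Siglec1, -). Fcna, Lrp1 and Msr1 overlap genes on the opposite strand. Promoters of Mrc1, Cd5l, Fcna and Lrp1 are shown because these genes were all higher in Timd4+ macrophages and have an entry in the RefSeq promoter table, where Msr1 and Siglec1 were not matched; they are the 250 bases before the RefSeq start, GRCm38.p6, read 5′ to 3′ along the gene, with GAGGAAG (the purine-rich core that ETS factors such as PU.1 bind) and TGCTGA (the half-site of MAF factors), on either strand, in capitals. They lie at chr2:14229164-14229413 (+), chr3:87357631-87357880 (+), chr2:25627975-25628224 (-) and chr10:127621149-127621398 (-).

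Mrc1: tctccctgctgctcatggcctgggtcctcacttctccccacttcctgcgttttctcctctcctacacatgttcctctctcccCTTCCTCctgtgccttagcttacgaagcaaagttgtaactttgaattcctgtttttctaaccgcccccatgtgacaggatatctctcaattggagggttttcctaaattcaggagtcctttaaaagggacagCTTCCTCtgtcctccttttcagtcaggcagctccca

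Cd5l: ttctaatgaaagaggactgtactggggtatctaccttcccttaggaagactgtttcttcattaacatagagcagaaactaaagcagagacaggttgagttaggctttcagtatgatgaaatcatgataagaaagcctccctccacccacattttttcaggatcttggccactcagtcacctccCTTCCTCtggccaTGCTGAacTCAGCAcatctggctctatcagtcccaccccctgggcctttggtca

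Fcna: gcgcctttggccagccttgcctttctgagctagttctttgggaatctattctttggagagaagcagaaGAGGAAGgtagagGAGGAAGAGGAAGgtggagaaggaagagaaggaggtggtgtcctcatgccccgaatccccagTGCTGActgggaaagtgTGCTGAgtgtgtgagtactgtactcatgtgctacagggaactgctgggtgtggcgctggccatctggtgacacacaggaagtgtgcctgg

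Lrp1: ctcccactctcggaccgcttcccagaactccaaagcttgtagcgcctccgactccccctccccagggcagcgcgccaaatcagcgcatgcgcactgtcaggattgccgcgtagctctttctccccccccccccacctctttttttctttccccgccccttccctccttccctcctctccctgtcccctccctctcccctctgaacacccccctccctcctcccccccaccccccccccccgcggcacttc

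GAGGAAG occurred 2 times in the Mrc1 promoter, 1 time in that of Cd5l and 3 times in that of Fcna, and in 10.7% of 32536 promoters of that length. TGCTGA occurred 0, 2 and 2 times, and in 16.1% of promoters. Lrp1 held neither motif and Marco held GAGGAAG 1 time. A match is a description of the letters only.

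Mrc1, a receptor for mannose-bearing glycoproteins, stood at 805, 890 and 757 CPM in Timd4+ macrophages, 118, 68.4 and 92.7 in Cx3cr1+ macrophages and 40.1, 31.1 and 30.3 in monocytes. The 3 populations did not overlap in any library. The log2 fold change was 3.01 ± 0.15 (SE, n = 3 libraries, edgeR adjusted p = 3.98e-07) between the macrophage populations and 4.36 ± 0.17 against monocytes (edgeR adjusted p = 4.5e-08). Mrc1 was also higher in Cx3cr1+ macrophages than in monocytes (1.35 ± 0.16, edgeR adjusted p = 0.000103). When all variable genes were used for clustering, the last difference turned to -1.90, also past the threshold, and the one before it fell to 1.02. The class named monocytes then held 50 cells in place of 1026. With the clustering used throughout, 208 of 1442 Cx3cr1+ macrophages had at least 5 Mrc1 UMIs and held 1975 of the 2993 of the class. Among monocytes, 36 of 1026 cells held 326 of 545.

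Lrp1, a large receptor of the LDL receptor family that takes up many ligands, was at 421, 537 and 416 CPM in Timd4+ macrophages. It was lower in Cx3cr1+ macrophages (28.6, 31.3 and 40.4) than in monocytes (49.5, 61.0 and 69.5). The log2 difference was 3.64 ± 0.14 between the macrophage populations (edgeR adjusted p = 6.85e-08), 2.69 ± 0.14 for Timd4+ macrophages against monocytes (edgeR adjusted p = 1.85e-07) and -0.94 ± 0.14 for Cx3cr1+ macrophages against monocytes (edgeR adjusted p = 0.000418). With clustering on all variable genes the last 2 values were 1.05 and -2.44. With the clustering used throughout, Cx3cr1+ macrophages lay below monocytes for Lrp1 and above them for Mrc1.

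Fcna, a soluble lectin that recognizes sugars and activates complement, was at 243, 150 and 207 CPM in Timd4+ macrophages and at 8.54, 5.05 and 2.57 in Cx3cr1+ macrophages. The log2 fold change was 5.14 ± 0.32 (edgeR adjusted p = 9.65e-07), and 6.35 once likely doublets were removed. Against monocytes it was 6.06 ± 0.39 (edgeR adjusted p = 8.24e-07), and 7.32 without MAFIA replicate 2. In monocytes Fcna was at 7.95, 0.998 and 0.594 CPM, and the difference from Cx3cr1+ macrophages missed the threshold (0.92 ± 0.54, edgeR adjusted p = 0.206). Without MAFIA replicate 2 it passed, at 1.89 (edgeR adjusted p = 0.039).

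Cd5l, a secreted protein that binds lipids and IgM, had the widest spread, relative to its level, between libraries of the same population among the 6 genes in Timd4+ macrophages, with 120, 400 and 93.0 CPM. Cd11cYFP replicate 1 was the highest there and also in Cx3cr1+ macrophages (3.01, 12.02 and 2.29), but not in monocytes (3.36, 1.20 and 0.89). Of its 408 Cx3cr1+ macrophages, 4 held 70 of the 100 Cd5l UMIs (up to 31 in a cell), and these 4 also had UMIs of other genes of the 7 and of Timd4+ macrophage markers. The difference between the macrophage populations was 5.02 ± 0.26 (edgeR adjusted p = 4.44e-07), and 5.85 once likely doublets were removed. Cx3cr1+ macrophages exceeded monocytes by 2.07 ± 0.50 (edgeR adjusted p = 0.00802), which rested on Cd11cYFP replicate 1 and fell to 0.23 without it (edgeR adjusted p = 0.727). It missed the threshold under 8 alternatives in all, among them the removal of likely doublets (1.42, edgeR adjusted p = 0.0632) and DESeq2 (1.28, DESeq2 adjusted p = 0.222). Against monocytes the Timd4+ difference was 7.09 ± 0.37 (edgeR adjusted p = 2.33e-07) and became 5.42 without the same library and 7.87 without MAFIA replicate 2.

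Siglec1, which binds sialic acid on other cells, was at 112, 81.4 and 47.7 CPM in Timd4+ macrophages, above its 20.8, 12.3 and 14.3 in Cx3cr1+ macrophages and 26.9, 14.3 and 16.04 in monocytes. It was higher by 2.17 ± 0.17 and 1.86 ± 0.18 (log2, edgeR adjusted p = 3.71e-06 and 1.13e-05). The difference between Cx3cr1+ macrophages and monocytes was -0.31 ± 0.19 (edgeR adjusted p = 0.221). It passed the threshold with the first clustering at a resolution of 0.3 (-0.61, edgeR adjusted p = 0.0191), and was -0.94 with clustering on all variable genes (edgeR adjusted p = 0.158).

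Msr1, a receptor for acetylated and oxidized lipoproteins, had the reverse order. It stood at 89.3, 118 and 105 CPM in Cx3cr1+ macrophages, 79.8, 70.1 and 80.8 in monocytes and 38.2, 56.7 and 65.5 in Timd4+ macrophages. Timd4+ macrophages were lowest in each of the 3 libraries. An unnamed cluster with the monocyte marker Chil3, described at the end, was not counted as monocytes. The difference was -1.14 ± 0.14 against Cx3cr1+ macrophages (edgeR adjusted p = 0.000113) and -0.80 ± 0.15 against monocytes (edgeR adjusted p = 0.00118). Both missed the threshold when each cell was given its class without clustering (-0.84 and -0.32, edgeR adjusted p = 0.066 and 0.438), and the second also with clustering on all variable genes (-0.38, edgeR adjusted p = 0.257). Cx3cr1+ macrophages and monocytes differed by 0.34 ± 0.14 (edgeR adjusted p = 0.0824), and by 0.47 without MAFIA replicate 2 (edgeR adjusted p = 0.0286).

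Across 12 named classes, tested in 1 edgeR model with 66 pairs, Timd4+ macrophages had the highest mean of Mrc1, Cd5l, Fcna, Lrp1 and Siglec1. For Lrp1 the next class was fibroblast-like cells, at 446 and 354 CPM in the Cd11cYFP libraries and 50.8 in the 9 cells of MAFIA replicate 2, which were too few for the fit. These cells did not differ from Timd4+ macrophages beyond the spread (log2 difference 0.33 ± 0.31, edgeR adjusted p = 0.488), in a pair of classes where 36.4% of genes were called. Of 64 fibroblast-like cells with at least 5 Lrp1 UMIs, 61 had no UMI of the other 6 genes. In Cd11cYFP replicates 1 and 2, 7 of 41 and 8 of 23 such cells lacked UMIs of the Timd4+ macrophage markers Slc40a1, Vcam1, Hpgd and Timd4. Wherever this check is given, a single UMI of any of these markers at full depth counted. The share over all cells of the class was not computed, so the check does not show macrophage RNA. The source of the Lrp1 UMIs was not tested. Mrc1 in thymic epithelial-like cells was at 43.7, 90.6 and 7.78 CPM, below Cx3cr1+ macrophages (1.38 ± 0.41, edgeR adjusted p = 0.00663), with 49.8% of genes called. In this class 2 of 28 cells held 50 of the 55 Mrc1 UMIs of Cd11cYFP replicate 1 (up to 45 in a cell), and 1 cell held 10 of the 20 of MAFIA replicate 2. These cells also had UMIs of other genes of the 7 and of Timd4+ macrophage markers, and likely doublets were 0%, 25.0% and 21.9% of the class. Mrc1 levels in monocytes and in Cd209a+ dendritic cell-like cells (29.7, 9.98 and 34.6 CPM) did not differ beyond the spread (0.60 ± 0.33, edgeR adjusted p = 0.224), with 21.7% of genes called.

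**Figure D2:**
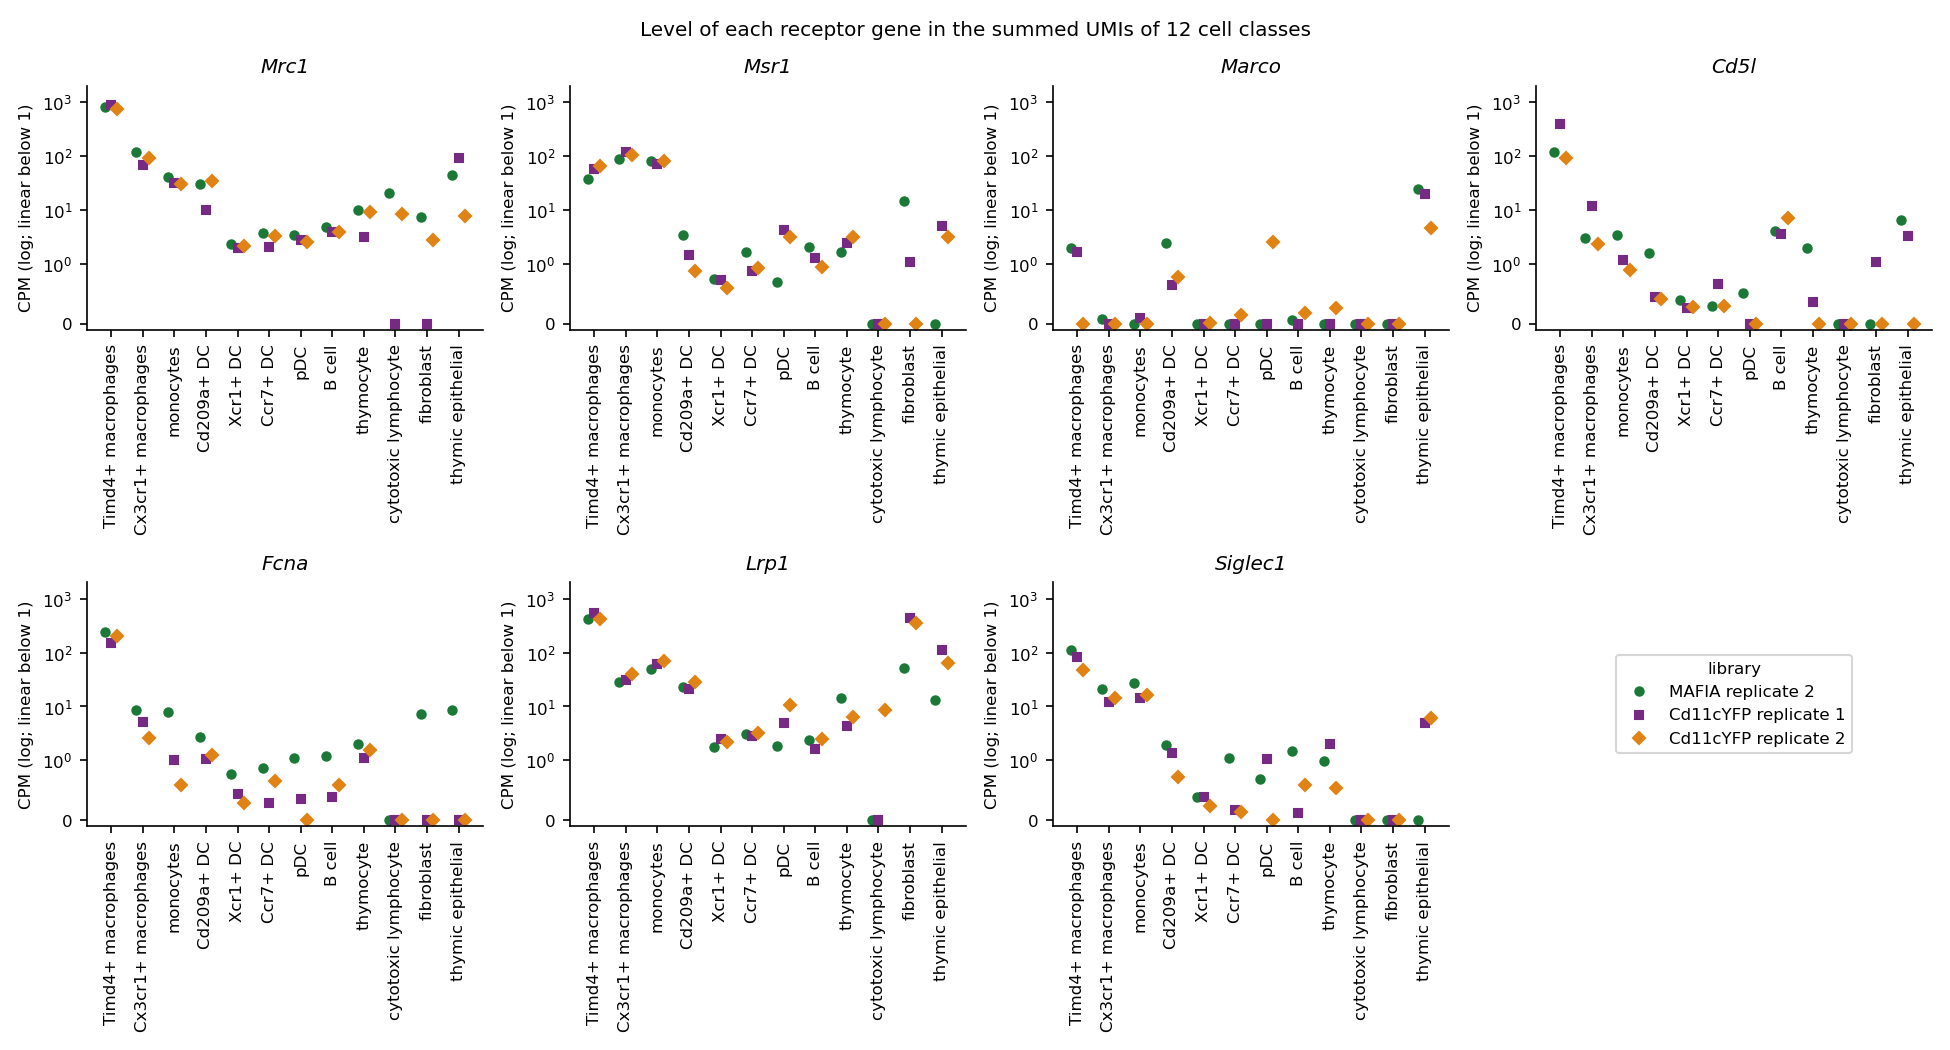
Level of each gene in CPM (vertical axis, log scale above 1 and linear below) in the summed UMIs of 12 cell classes, with 1 point per library. Timd4+ macrophages are highest for Mrc1, Cd5l, Fcna and Siglec1, fibroblast-like cells come next for Lrp1, and Marco is highest in thymic epithelial-like cells.

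Marco, a class A receptor for bacteria and particles, was scarce in macrophages. Timd4+ macrophages held 22 UMIs among 893 cells and Cx3cr1+ macrophages 1 UMI. The highest level was in thymic epithelial-like cells, at 24.0, 19.8 and 4.67 CPM, from 26 UMIs in 81 cells. It exceeded that of Cd209a+ dendritic cell-like cells by 3.30 ± 0.86 (log2, edgeR adjusted p = 0.00204), with 50.6% of genes called in that pair. A single epithelial-like cell gave all 12 Marco UMIs of Cd11cYFP replicate 1, and 2 cells gave 10 of the 11 of MAFIA replicate 2. All of these cells had UMIs of Timd4+ macrophage markers. The cell of Cd11cYFP replicate 1 also had UMIs of other genes of the 7, and the 2 of MAFIA replicate 2 did not. Likely doublets were 0%, 25.0% and 21.9% of the class, and the source of the Marco UMIs was not tested.

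Cd5l in B cell-like cells was at 4.11, 3.56 and 7.08 CPM, not distinguishable from Cx3cr1+ macrophages (log2 difference -0.05 ± 0.46, edgeR adjusted p = 0.967), in a pair with 51.1% of genes called. Of 3192 such cells, 8 had at least 5 Cd5l UMIs, up to 28, and together held 106 of the 238 Cd5l UMIs of the class. None of the 8 had a UMI of the other 6 genes. By library, 0 of 2, 0 of 2 and 2 of 4 lacked UMIs of the Timd4+ macrophage markers Slc40a1, Vcam1, Hpgd and Timd4. The source of the Cd5l UMIs was not tested.

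The share of cells with a UMI was compared after random reduction of every cell to 3000 UMIs. Mrc1 was found in 81.7% ± 2.04 of Timd4+ macrophages (SD, n = 3), 18.6% ± 6.13 of Cx3cr1+ macrophages and 6.98% ± 1.68 of monocytes. In B cells, which should lack Mrc1, it was found in 1.07% ± 0.76. Before reduction the median depth was 12837 to 17828 UMIs for Timd4+ macrophages, compared with 10620 to 12873 for the B cell-like class. Lrp1 was found in 71.0% ± 2.85, 6.99% ± 2.15 and 15.97% ± 3.05 of the 3 populations, and Msr1 in 14.3% ± 5.80, 23.5% ± 2.57 and 17.3% ± 1.86. Fcna reached 37.4% ± 6.82 of Timd4+ macrophages and Cd5l 19.6% ± 10.6, against 0.88% ± 0.66 and 0.96% ± 0.66 of Cx3cr1+ macrophages and 0.29% ± 0.31 and 0.98% ± 0.34 of B cell-like cells. At that depth 48.8% to 54.8% of Timd4+ macrophages held at least 3 of the 6 genes other than Marco, compared with 0.98% to 1.91% of Cx3cr1+ macrophages.

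**Figure D3:**
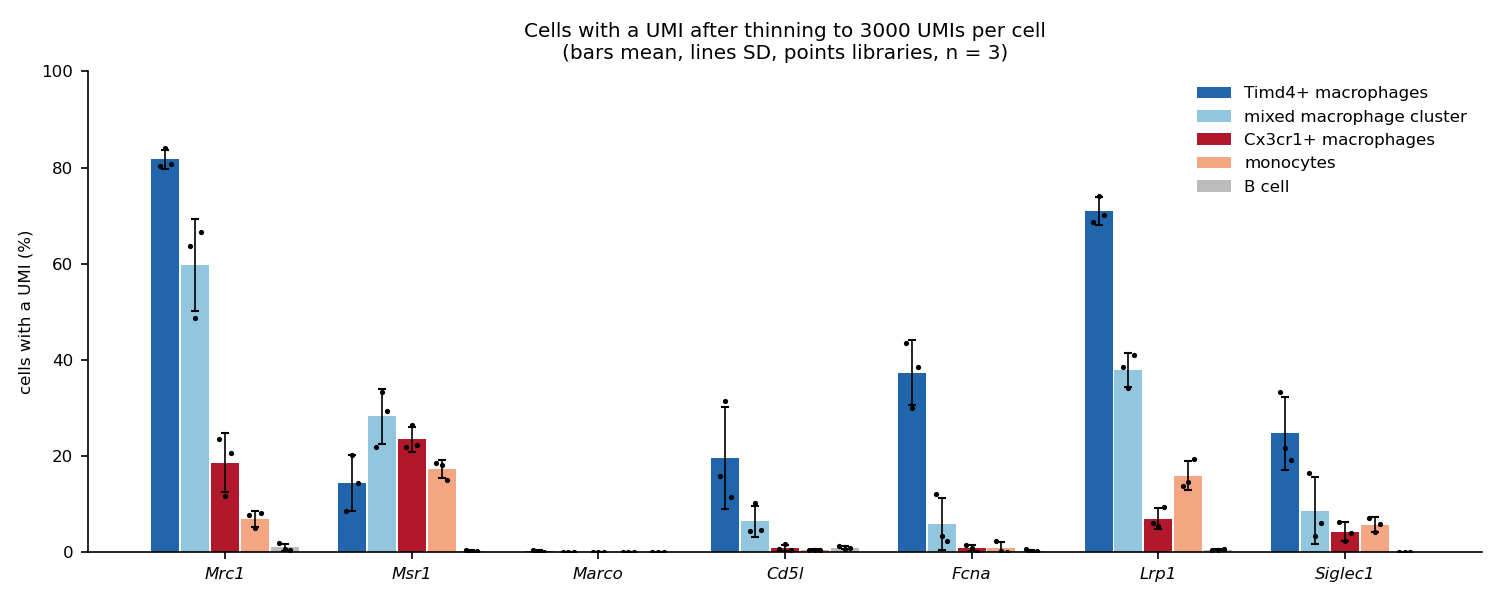
Percentage of cells with a UMI of each gene (vertical axis) after reduction to 3000 UMIs per cell, as mean (bar), SD (line) and libraries (points, n = 3). Mrc1 and Lrp1 are found in 81.7% and 71.0% of Timd4+ macrophages, and the mixed cluster lies between the 2 macrophage populations for both.

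A cluster of 337 cells (91, 117 and 129) scored for both macrophage populations and was left unnamed. It was led by Ccl8, Pf4 and Pla2g2d. Mrc1 stood at 509, 315 and 413 CPM in it and Lrp1 at 176, 182 and 197, between the 2 named populations in each library. Msr1 (89.96, 130 and 112) was about equal to its level in Cx3cr1+ macrophages in MAFIA replicate 2 (89.34) and above it in the Cd11cYFP libraries. These differences were not tested. The Timd4+ macrophages themselves were 2 clusters, of 736 and 157 cells. The smaller had a median depth 1.92 times that of its libraries and lower Mrc1 (396, 207 and 168 CPM against 962, 1136 and 1254). Likely doublets, found by likeness to simulated pairs of cells, made up 60.9%, 94.1% and 89.8% of the smaller cluster, 0.311%, 0.437% and 0% of the larger one and 5.50%, 3.42% and 0% of the unnamed one. Over all Timd4+ macrophages they were 10.4% to 21.7%, and without them the difference from Cx3cr1+ macrophages was 3.45 for Mrc1 and 4.16 for Lrp1 (log2, edgeR adjusted p = 7.05e-07 and 1.03e-07).

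Cells of the named macrophage populations and of the unnamed cluster led by Ccl8 were also split by UMIs of Timd4 and Cx3cr1 after reduction. Other unnamed clusters were left out. Mrc1 was highest in cells with Timd4 only (831, 992 and 1396 CPM of the reduced cells), lower in cells with both (322, 444 and 683) and lowest with Cx3cr1 only (194, 149 and 211). Lrp1 fell from 433, 596 and 648 through 107, 333 and 309 to 60.2, 58.5 and 85.7. Cells with both numbered 59, 24 and 41. Cells with neither numbered 319, 288 and 254, with Mrc1 at 450, 378 and 364 and Lrp1 at 182, 209 and 211. For both genes they lay above the cells with both in MAFIA replicate 2 and below them in the Cd11cYFP libraries. A reduced cell can lack a UMI of a gene that it expresses.

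**Figure D4:**
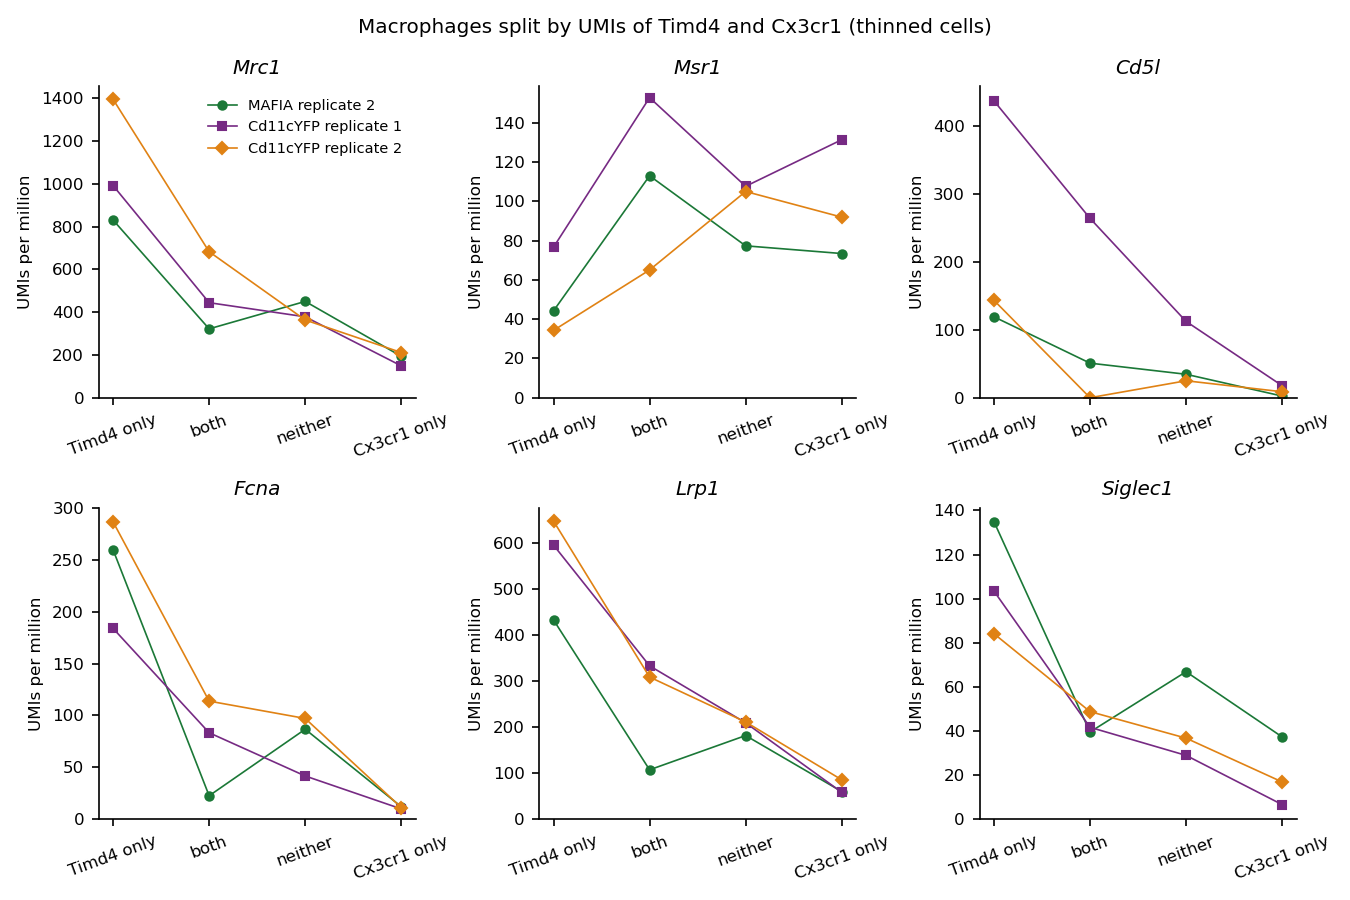
CPM in reduced cells of 6 genes (vertical axes) in macrophages grouped by whether they held UMIs of Timd4, Cx3cr1, both or neither, with 1 line per library. Mrc1 is highest with Timd4 only and lowest with Cx3cr1 only in each library, and Msr1 does not follow this order.

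Related genes were read from 8 lists of the wider families, members included, beside the 21.0% of all genes higher and 20.1% lower in this comparison. The lists hold few genes and nothing is called particular to them. Among other scavenger receptors, 4 of 9 tested were higher and 5 lower in Timd4+ than in Cx3cr1+ macrophages (median -0.42). Stab2, a hyaluronan receptor, was higher by 2.15 ± 0.19 and Cd36, a fatty acid and lipoprotein receptor, by 2.03 ± 0.20 (edgeR adjusted p = 9.43e-06 and 2.02e-05). Of 5 tested proteins with scavenger receptor cysteine-rich domains, 3 were higher and 1 lower (median 1.12); Cd163, the hemoglobin-haptoglobin receptor, was at 63.4, 163 and 187 CPM against 2.51, 1.92 and 0.37 (log2 difference 6.13 ± 0.53, edgeR adjusted p = 8.87e-06). Cd5, a lymphocyte surface protein, was higher by 1.12 ± 0.38 (edgeR adjusted p = 0.0373). Whether RNA of B cells, whose markers are given above, or of thymocytes had a part in it was not tested. In the LDL receptor family 7 of 12 were higher and 3 lower (median 0.65), with Vldlr higher by 2.18 ± 0.68 and Sorl1 lower by -1.80 ± 0.13 (edgeR adjusted p = 0.0324 and 2.46e-06). Of 6 siglecs 4 were higher and 1 lower (median 1.10), with Siglece and Siglecg at 1.28 ± 0.27 and 1.26 ± 0.32 (edgeR adjusted p = 0.0033 and 0.0101). Of 5 uptake adaptors 0 were higher and 1, Rac1, was lower (-0.35 ± 0.08, edgeR adjusted p = 0.00561). In the class A list (2 tested) Msr1 was lower; in the mannose receptor family (2 tested) Mrc1 was higher; the soluble lectin list had Fcna alone past the filter.

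**Figure D5:**
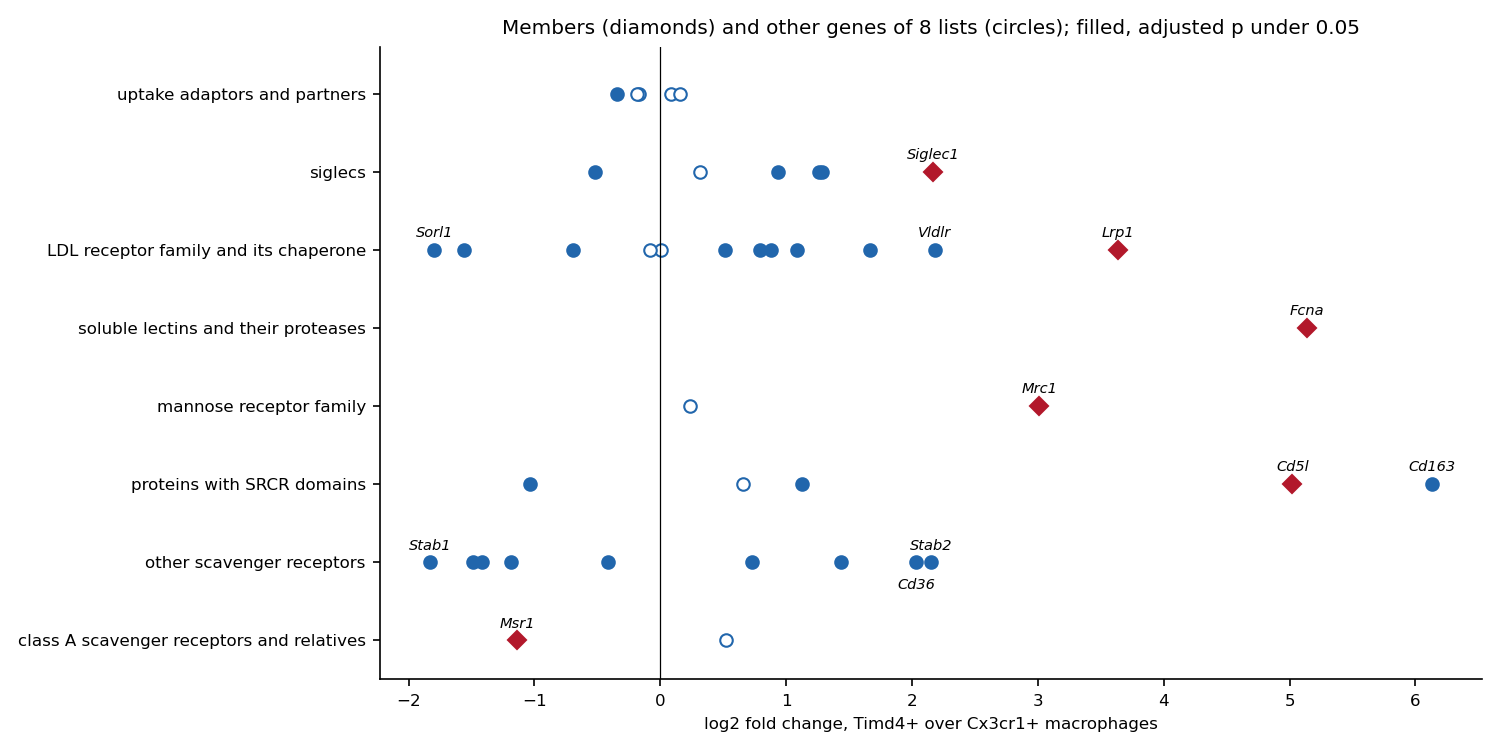
Log2 fold change of Timd4+ over Cx3cr1+ macrophages (horizontal axis) for tested genes of 8 lists, with diamonds for the 7 genes' tested members, circles for relatives and filled symbols for an adjusted p under 0.05. Other scavenger receptors lie on both sides of 0, from -1.83 to 2.15.

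Over 33 sums of a class in a library, the genes whose log2 CPM followed each receptor most closely were Tgm1, Adgre1 and 2900052N01Rik for Mrc1 (Pearson r of 0.907 to 0.937), C1qa, C3ar1 and C1qc for Msr1 (0.96 to 0.968), Plod1, Adgrl3 and Slc39a1 for Lrp1 (0.912 to 0.923) and Pilrb2, Ms4a7 and Tlr8 for Siglec1 (0.937 to 0.958). Cd5l (Gm44861, Paqr9 and Chp2, 0.922 to 0.927) and Fcna (Gm44861, Paqr9 and Ucp3, 0.93 to 0.963) shared their first 2 genes, and Marco was followed by Psmb11, Myo5c and Stox1 (0.895 to 0.898). Psmb11 is among the markers that name thymic epithelial-like cells, where 3 cells held 22 of the 26 Marco UMIs. By Spearman's correlation the values for Marco were 0.554, 0.624 and 0.428. The sums share libraries, so all these correlations are descriptions.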

How the data were processed

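The authors deposited raw counts, 1 per UMI, for every gene in every barcode, with no normalization. The labels name bcl2fastq 2.20, STAR 2.7.9a, Cell Ranger and GRCm39, and the study's methods another Cell Ranger run on mm10. The 7 genes and the wider lists were chosen with earlier results of these data known, and the scoring rule likewise.

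Barcodes with 1000 to 7000 genes and at most 10% mitochondrial UMIs were kept (23549 cells in 3 libraries; 10 to 25 barcodes were shared between any 2). After scaling each cell to 10000 and taking logs, 2000 variable genes were taken without the listed genes, and cells were clustered by the Leiden method (leidenalg 0.10.2; 70 then 30 components, resolution 0.15 then 0.5). Of 62 clusters, 12 stayed unnamed (2037 cells, 8.65%). Names needed a mean scaled marker score of 0.5. Doublets were left in, and removed in an alternative (0.8% per 1000 barcodes).

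Each class with 10 or more cells in a library gave 1 sum of UMIs, and sums were compared with edgeR 4.0.16 (R 4.3.3; TMM, filterByExpr, quasi-likelihood F test, Benjamini-Hochberg over all genes, threshold 0.05). The library (replicate) was a block, since its populations were sorted together from 1 sample. Residual degrees of freedom were 4. The SE of an edgeR log2 fold change was taken as its absolute size divided by the square root of the F statistic. It is not the spread of differences per library. CPM were computed from each sum without further normalization. Genes named from the lists were the 2 largest changes past the threshold per list and comparison, shown for the macrophage comparison, and for likeness the 3 highest correlations among genes with at least 50 UMIs. Intervals and shares cover counting error and library spread only. In simulated counts of the Timd4+ against Cx3cr1+ design (12442 genes), 50.7%, 71.6% and 87.9% of genes changed 1.5, 2 and 4 times were recovered, and 18 of 12242 unchanged genes were called.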

Additional observations from a re-analysis of the deposited data

Results flagged for a closer look

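MAFIA replicate 1 entered none of the main comparisons and was clustered only in the alternative with all 4 libraries. It held UMIs of each gene, above the 3 that a count of 0 allows. It had 2121 UMIs of Mrc1 (78.9 CPM, in 29.5% of barcodes), 1209 of Lrp1, 692 of Fcna, 424 of Msr1, 301 of Cd5l, 146 of Siglec1 and 22 of Marco. These are values over all its barcodes.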

How the results depend on the processing

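Without the replicate block (the library term), 3186 genes in place of 5211 were called between the macrophage populations and 2709 in place of 4759 between Cx3cr1+ macrophages and monocytes. With one library left out, counts ranged from 3748 to 4014, from 4496 to 5326 (Timd4+ macrophages against monocytes, 6220 with all) and from 2891 to 3770, in that order. With clustering on all variable genes, 2306 and 1914 genes were called in the 2 comparisons with monocytes, and Mrc1 in Cx3cr1+ macrophages against monocytes turned to -1.90; the Timd4+ differences of Mrc1 and Lrp1 from monocytes were then 1.02 and 1.05. By Spearman's correlation 8 of the 21 most similar genes stayed on the list. Of 84 values of the 6 genes in the macrophage comparison under alternatives, 83 kept direction and side of the threshold and 1 (Msr1, above) did not. For Timd4+ macrophages against monocytes this was 70 of 72. For Cx3cr1+ macrophages against monocytes it was 56 of 72, with 8 losing the threshold, all of Cd5l, 7 gaining it (Msr1, Fcna and Siglec1) and 1 turning. With all 4 libraries clustered or a mitochondrial limit of 5%, no cluster was named monocytes and only the macrophage comparison gave values. Shares of cells with a UMI rose with depth: for Mrc1 in Timd4+ macrophages the share was 87.5% at 5000 UMIs and 95.3% without reduction.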

Other observations

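An unnamed cluster of 241 cells led by S100a9, S100a8 and Chil3, 173 of them in MAFIA replicate 2, held Msr1 at 160, 78.3 and 91.3 CPM and Lrp1 at 118, 100 and 68.5, with Mrc1 at 12.3, 1.57 and 15.2. Chil3 is among the markers that name monocytes, and these cells were not part of the monocyte sums. In MAFIA replicate 2 their Msr1 was above the 89.3 CPM of Cx3cr1+ macrophages and the 79.8 CPM of monocytes.

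Within Cd209a+ dendritic cell-like cells, a cluster of 556 cells led by Cd209d, Cd209e and Cyp7b1 held Mrc1 at 65.6, 31.9 and 69.2 CPM.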
